A study of Bos taurus with 23 samples.

Results

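SYT1 (synaptotagmin 1, ENSBTAG00000034693) and SCG5 (secretogranin V, also called 7B2, ENSBTAG00000032613) were followed across 23 endometrial libraries of Holstein cows. They are the regulated secretion genes in the study's list of 50 biomarker genes, and they are 2 of the 24616 genes in the count files. The study's list was chosen by measured expression, with classifiers that separate cows that became pregnant from cows that did not, on several data sets and breeds that include part of these same cows. The difference by pregnancy status is therefore given as a description without a test. Tests are kept for parity, for days from calving and for the interaction of parity with pregnancy status. Both genes passed the filter on low counts, as did 14852 genes in all.

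Cells with regulated secretion store cargo in vesicles or granules and release it when calcium rises. SYT1 is the calcium sensor on such vesicles that triggers their fusion with the plasma membrane. SCG5 is a small granule protein that acts as a chaperone of the prohormone convertase PCSK2, which cuts peptide precursors inside the granule. Both proteins are best known from neurons and endocrine cells, and the glands of the endometrium secrete the fluid that feeds the early embryo.

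The samples were biopsies of lactating Holstein cows, taken at day 6 to 8 of dioestrus, with 1 library per cow. In the cycle after the biopsy each cow received 1 embryo produced in vitro, and pregnancy status was read at slaughter between days 26 and 47. Of the cows, 12 were pregnant and 11 were non-pregnant, 12 were of parity 1, 5 of parity 2 and 6 of parity 3, and the embryo was transferred 128 to 274 days after the last calving. Parity 1 held 7 pregnant and 5 non-pregnant cows, and parity 2 or more held 5 pregnant and 6 non-pregnant cows. The biopsies were taken before any embryo was present, so pregnancy status is a later outcome of the cow and not a state of the tissue. A biopsy mixes epithelium, stroma, vessels and blood cells, and the defining markers of these cell types were not analysed here because the files name genes by identifier alone.

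Counts in genes ran from 6920879 to 27357249 per library. Along the first principal component, which took up 43.2% of the variance, 4 libraries stood apart at 49.7 or more, against at most 9.75 for the other 19. These came from 2 non-pregnant cows, replicates 4 and 6, and 2 pregnant cows, replicates 22 and 23, of which replicates 4, 22 and 23 are of parity 1 and replicate 6 is of parity 2. Pregnant replicates 20 and 21 differed in another way, with a share of reads outside genes of 75.5% and 76.7%, where no other library exceeded 59.6%. Results that rest on these libraries are given with and without them.

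SYT1 was at 5.80 to 15.4 CPM (counts scaled to library size) in the 19 libraries, with a median of 11.3 CPM, and was under 1 CPM in 3 of the 4 libraries that stood apart. It was at 0.345 CPM in non-pregnant replicate 6, at 0.431 CPM in pregnant replicate 22 and at 0.650 CPM in pregnant replicate 23, which rest on 7, 8 and 7 counts. Non-pregnant replicate 4 had 5.17 CPM from 83 counts. All 4 libraries lay below every one of the other 19, but replicate 4 lay just under the lowest of them, non-pregnant replicate 2 at 5.80 CPM. Against the median of the 19, SYT1 was 32.6-fold lower in non-pregnant replicate 6, with a 95% interval of 15.8 to 81.2 from the exact Poisson limits of its count. The same ratio was 26.2-fold (13.3 to 60.6) in pregnant replicate 22, 17.3-fold (8.42 to 43.1) in pregnant replicate 23 and 2.18-fold (1.76 to 2.74) in non-pregnant replicate 4. These intervals cover counting error only, and the first 3 of them overlap, so no order among those libraries can be read. In whole tissue, fewer cells that make a transcript and less of it in each cell cannot be told apart.

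SCG5 was also low in these libraries, but less so and not in the same order. Among the 19 libraries it was at 8.78 to 37.2 CPM, with a median of 23.2 CPM. It was at 5.01 CPM in pregnant replicate 23, at 6.48 CPM in non-pregnant replicate 4 and at 7.53 CPM in pregnant replicate 22. These 3 values lay below all 19 other libraries. Non-pregnant replicate 6, where SYT1 was lowest, had SCG5 at 16.4 CPM, inside the range of the 19. Relative to the median of the 19, SCG5 was 4.62-fold lower in pregnant replicate 23 (3.54 to 6.15), 3.58-fold in non-pregnant replicate 4 (2.95 to 4.38), 3.07-fold in pregnant replicate 22 (2.60 to 3.65) and 1.41-fold in non-pregnant replicate 6 (1.27 to 1.57). Non-pregnant replicate 4 thus had SYT1 and SCG5 both under the lowest of the other libraries, with counting intervals that overlapped that library, and non-pregnant replicate 6 had SYT1 far under them and SCG5 among them.

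**Figure D1:**
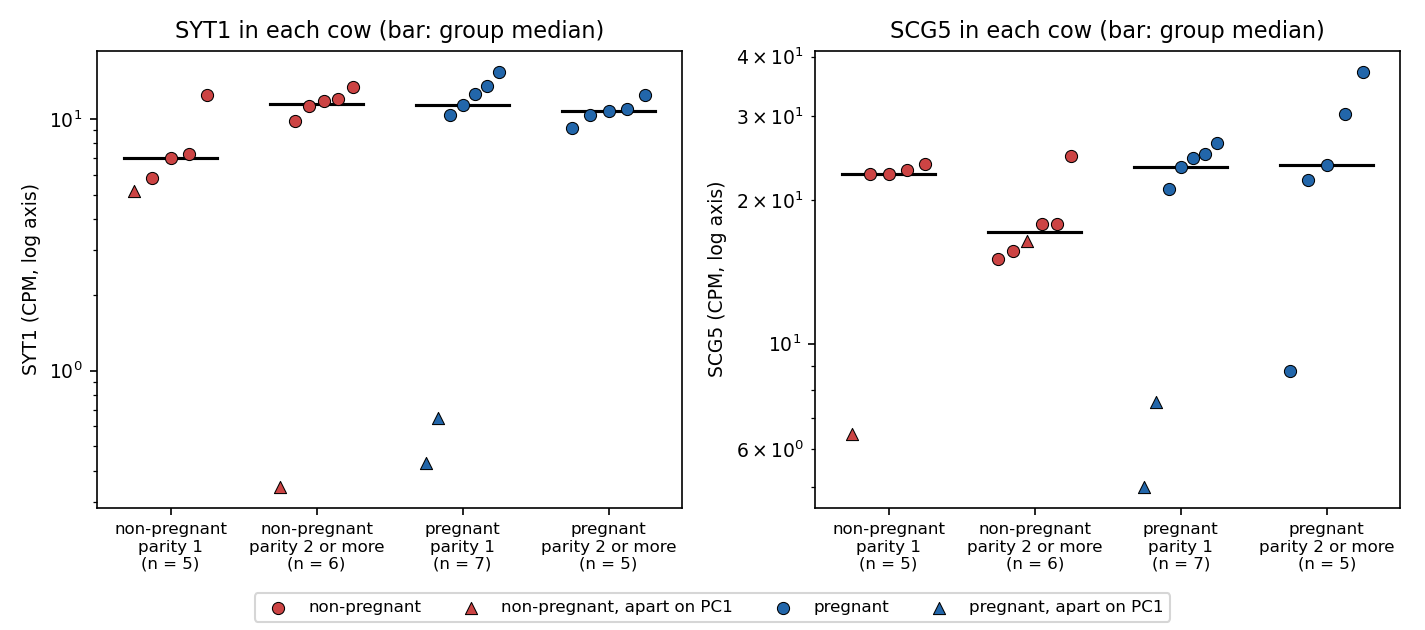
CPM of SYT1 (left) and SCG5 (right) in each of the 23 cows on a log axis, by pregnancy status and parity class, with triangles for the libraries that stood apart and lines for the group medians. The SYT1 values at 0.345, 0.431 and 0.650 CPM sit far under the other libraries, while SCG5 reaches down to 5.01 CPM.

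The ratio of SCG5 to SYT1 counts puts the same difference within each library, where depth and scaling cancel. In the 19 libraries this ratio ran from 0.846 to 3.92, with a median of 1.86. It was 47.6 in non-pregnant replicate 6, 17.5 in pregnant replicate 22 and 7.71 in pregnant replicate 23, all above the 19. In non-pregnant replicate 4 it was 1.25, within that range. The ratios above the 19 rest on 7, 8 and 7 counts of SYT1, and no interval was computed for them. That of replicate 23 is the nearest to the 19, so its place above all of them is not settled. The ratio depends on the lengths of both transcripts, so it compares libraries and does not rank the genes.

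On the log2 scale, the mean of the 4 libraries minus the mean of the other 19 was -3.44 for SYT1 and -1.42 for SCG5, against a median of -0.01 over all genes. SYT1 had the 196th lowest of the 14852 differences, and SCG5 had the 1436th lowest. Of all genes, 4.92% lay below the other 19 in each of the 4 libraries, SYT1 among them, and 4.98% lay above in each. Of the 50 biomarker genes, SYT1 and SKA2, a component of the spindle and kinetochore complex, lay below in all 4, and no gene of the list lay above in all 4. The difference was lower than that of SYT1 in the collagen gene COL26A1 alone. It was lower than that of SCG5 in SYT1, COL26A1, the Wnt5a receptor gene ROR2 and the transcription factor gene EBF4. The 4 libraries were set apart by the expression of all genes, these included, so the differences are a description without a test.

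The 4 libraries had 11736667 to 20507100 counts in genes and 46.8% to 59.2% of reads outside genes. Both lay within the range of the other 19 (6920879 to 27357249 counts and 39.2% to 76.7%), which pregnant replicates 20 and 21 widen. Without these 2 the lowest depth was 14147023 counts, in non-pregnant replicate 1, and pregnant replicate 23 lay below it at 11736667 counts. The highest share outside genes was then 59.6%, just above the 59.2% of pregnant replicate 22. The part of depth in the low values was not tested. They came from both outcomes and from parity 1 and 2, at 173 to 219 days from calving. Pregnant replicate 21, from the pair with most reads outside genes, had the lowest SCG5 of the 19 libraries (8.78 CPM, 66 counts), 2.64-fold under their median (2.07 to 3.41), with SYT1 at 10.4 CPM. Pregnant replicate 20, the other of that pair, had SCG5 at 26.3 CPM and SYT1 at 11.4 CPM. The part of the reads outside genes in the low SCG5 of replicate 21 was not tested.

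**Figure D2:**
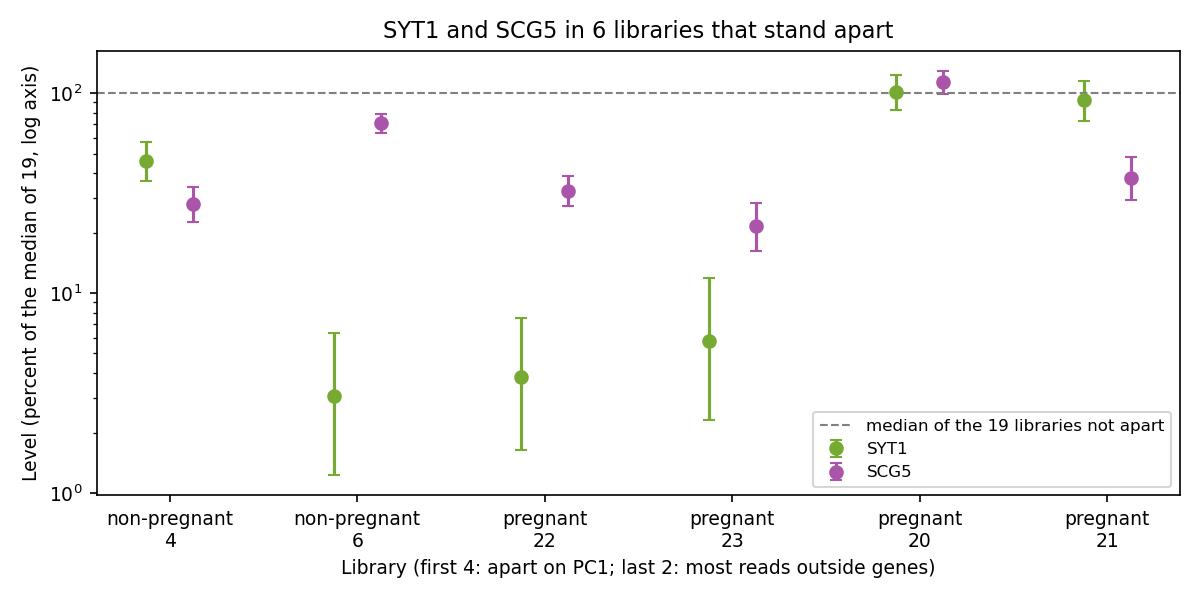
SYT1 and SCG5 in the 6 libraries that differed from the rest, as a percent of the median of the 19 libraries on a log axis, with 95% intervals from the exact Poisson limits of each count. SYT1 is at 3.06%, 3.82% and 5.77% of that median in non-pregnant replicate 6 and pregnant replicates 22 and 23, and SCG5 is between 21.6% and 70.9% in the 4 libraries that stood apart.

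How variable each gene was depended on these 4 libraries, most of all for SYT1. Over the 23 cows the SD of log2 CPM was 1.50 for SYT1 and 0.73 for SCG5, with a median of 0.46 over all genes. A higher SD was held by 4.89% of genes for SYT1 and by 29.1% for SCG5. Over the 19 libraries the SD was 0.34 for SYT1 and 0.44 for SCG5, against a median of 0.39, and 58.5% and 42.0% of genes had a higher one. The coefficient of variation of CPM went from 46.0% over 23 cows to 21.9% over the 19 for SYT1, and from 38.9% to 26.8% for SCG5. Counting error alone would give 7.33% for SYT1 and 5.27% for SCG5 in the 19 libraries, below the spread observed. The dispersion fitted by edgeR showed the same shift. The biological coefficient of variation of SYT1 was 0.736 where the trend at its level was 0.504, and without the 4 libraries it was 0.243 against a trend of 0.347. For SCG5 it was 0.447 against 0.419 with all cows, and 0.275 against 0.297 without the 4.

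Among the 19 libraries, no relation between SYT1 and SCG5 was found at the precision of these cows. Pearson's r between the log2 CPM of both genes was -0.0213 (permutation p = 0.927) and Spearman's rho was 0.118 (permutation p = 0.631, n = 19), with adjusted p of 0.927 and 0.883 over a family of 7 relations. Without the 2 cows farthest from the median of SYT1, r was 0.0462. With the means of pregnant and non-pregnant cows removed, r was -0.118. The cows with the lowest SYT1 of the 19, non-pregnant replicates 2, 16 and 9 at 5.80, 6.97 and 7.23 CPM, had SCG5 at 22.7, 23.2 and 23.9 CPM, close to its median. In turn the cows with the lowest and the highest SCG5, pregnant replicates 21 and 11 at 8.78 and 37.2 CPM, had SYT1 at 10.4 and 10.9 CPM. Over all 23 cows, the set planned at first, r was 0.606 (permutation p = 0.0046, adjusted p = 0.0322) and rho was 0.454 (permutation p = 0.0297, adjusted p = 0.208). The call of r thus depends on the 4 libraries that stood apart, while rho passed in neither set after adjustment. Over the 19 libraries r was too near 0 for its sign to be read. These libraries form a cluster of their own, and the pooled r is not read as a relation among the other cows. The family also held the relation of each gene to the share of reads outside genes and to the log2 of the counts in genes, and over the 19 libraries no relation passed (smallest adjusted p 0.446). The nearest was SCG5 with the log2 counts in genes (r = 0.423, permutation p = 0.0773, rho = 0.0246). Its r was 0.574 with the means of pregnant and non-pregnant cows removed (permutation p = 0.0175, adjusted p = 0.123). Without pregnant replicate 20 it was 0.568 (permutation p = 0.0293, adjusted p = 0.193). It went to 0.0318 without the 2 cows farthest in depth, pregnant replicates 20 and 21.

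**Figure D3:**
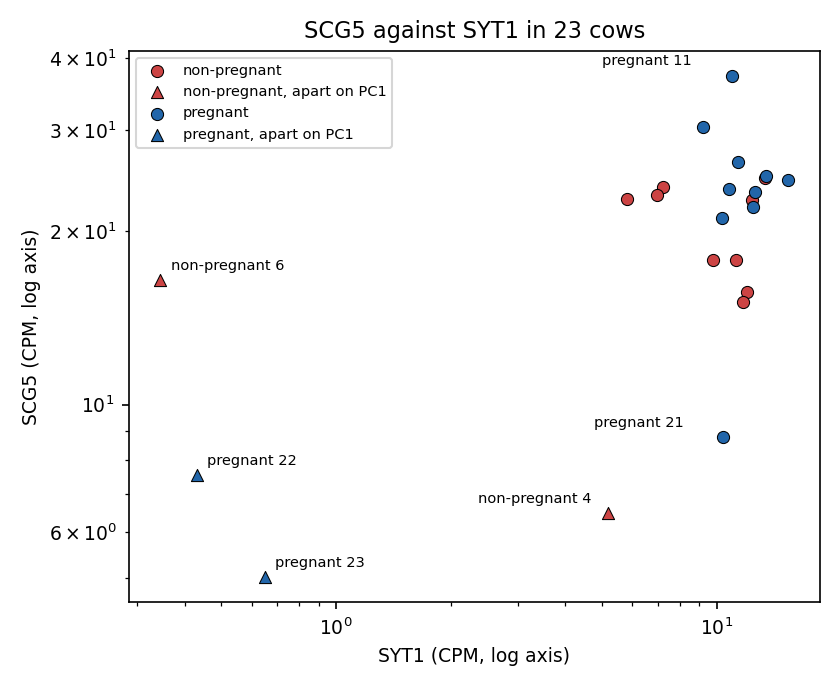
CPM of SYT1 (x axis) against SCG5 (y axis), both on log axes, 1 point per cow, with the 4 libraries that stood apart (triangles) and pregnant replicates 11 and 21 named. The 19 libraries form 1 cloud (r = -0.0213), and the 4 triangles lie to its left, 3 of them also below it.

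Parity was the first comparison that the choice of the genes did not use. In 12 cows of parity 1, SYT1 had its lowest value at 0.431 CPM, a median of 8.79 and its highest value at 15.4 CPM. In 11 cows of parity 2 or more, it went from 0.345 CPM through a median of 10.9 to 13.4 CPM. The ranges overlapped almost whole, although 10 of 11 cows of parity 2 or more lay above the median of parity 1. Among the 19 libraries 4 of 10 did, since the median of parity 1 was then 11.4 CPM and that of parity 2 or more 11.1 CPM. By parity number, SYT1 was at 0.345, 9.18, 10.8, 11.7 and 12.0 CPM in the 5 cows of parity 2 and at 9.81 to 13.4 CPM, with a median of 11.1, in the 6 cows of parity 3. For SCG5, parity 1 had 5.01 CPM, a median of 22.9 and 26.3 CPM at the top. Parity 2 or more had 8.78 CPM, a median of 17.8 and 37.2 CPM at the top, and 4 of 11 cows lay above the median of parity 1.

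In a fit with pregnancy status and days from calving, the log2 fold change of SYT1 (parity 2 or more against parity 1) was 0.25 with a standard error of 0.49 (95% interval -0.77 to 1.28, adjusted p = 0.921, edgeR's quasi-likelihood test). That of SCG5 was 0.07 with a standard error of 0.31 (-0.57 to 0.70, adjusted p = 0.971). Neither gene passed, and 0% of the 14852 genes did in this comparison. At an unadjusted p under 0.05 the test held 1007 genes, and DESeq2's Wald test called 1 gene (0.00673%), which was neither SYT1 nor SCG5. The intervals leave room for a change of SYT1 in either direction. Without the 4 libraries that stood apart, the log2 fold change was 0.06 for SYT1 (standard error 0.16, -0.28 to 0.40, adjusted p = 0.949) and -0.27 for SCG5 (standard error 0.19, -0.68 to 0.14, adjusted p = 0.752). The sign for SCG5 thus turned when these libraries, 3 of them of parity 1 with SCG5 at 5.01 to 7.53 CPM, were left out.

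Within the 19 libraries the parity classes differed in the spread of both genes, and in opposite directions. Spread was taken around the parity class as a whole, so a difference between pregnant and non-pregnant cows within a class counts as spread. SYT1 ranged from 5.80 to 15.4 CPM in 9 cows of parity 1 (coefficient of variation 31.0%) and from 9.18 to 13.4 CPM in 10 cows of parity 2 or more (11.2%). The SD of log2 CPM was 0.48 against 0.16, and 0.310% of genes had a lower ratio of the second SD to the first. SCG5 lay between 21.1 and 26.3 CPM in parity 1 (coefficient of variation 6.43%) and went from 8.78 to 37.2 CPM in parity 2 or more (38.5%). Its SD was 0.09 against 0.58, a ratio of 6.32, and 1 of the 14852 genes had a higher ratio. Without pregnant replicates 20 and 21 the SD of SCG5 was 0.08 against 0.44, a ratio of 5.80, and 3 genes had a higher ratio. For SCG5 the spread in parity 1 was little above the 4.83% that counting error alone would give. In the 4 non-pregnant cows of parity 1 it was 2.39%, below the 4.39% expected from counting error. These cows lay closer together than counting error alone would place them, which lowers the SD of parity 1 and raises the ratio. Split by outcome, the SD of SYT1 in parity 1 was 0.47 in non-pregnant and 0.22 in pregnant cows. In parity 2 or more it was 0.16 in each. The SD of SCG5 in parity 1 was 0.03 in non-pregnant and 0.12 in pregnant cows. In parity 2 or more it was 0.28 and 0.79. Each of these groups holds 4 or 5 cows.

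A permutation test over the cows was made on the mean distance from the median of the class, on the log2 scale. It counted every regrouping of these distances, and is called exact in that sense only. The class medians were not taken again for each regrouping, so the p-values are approximate. For SYT1 this distance was 0.38 in parity 1 and 0.13 in parity 2 or more (two-sided exact permutation p = 0.0296 over 92378 regroupings, adjusted p = 0.0296 over both genes). For SCG5 it was 0.07 and 0.44 (two-sided exact permutation p = 0.000552, adjusted p = 0.0011). This comparison was chosen after the values had been seen, so its p-values are not independent of the choice. It also rests on leaving out the 4 libraries. With all 23 cows the distance was 1.05 against 0.53 for SYT1 (exact permutation p = 0.273) and 0.52 against 0.42 for SCG5 (exact permutation p = 0.708), which is the opposite direction for SCG5. Without pregnant replicates 20 and 21 as well, the p-values were 0.0111 for SYT1 and 0.00358 for SCG5 (exact permutation). Within the 19 libraries, the test for SYT1 no longer passed without any 1 of non-pregnant replicates 2, 9, 12 and 16 and pregnant replicate 11. For SCG5 it passed there without any 1 cow. All these checks leave out the 4 libraries, among them the parity 1 cows with SCG5 at 5.01, 6.48 and 7.53 CPM, so they do not bear on that choice.

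**Figure D4:**
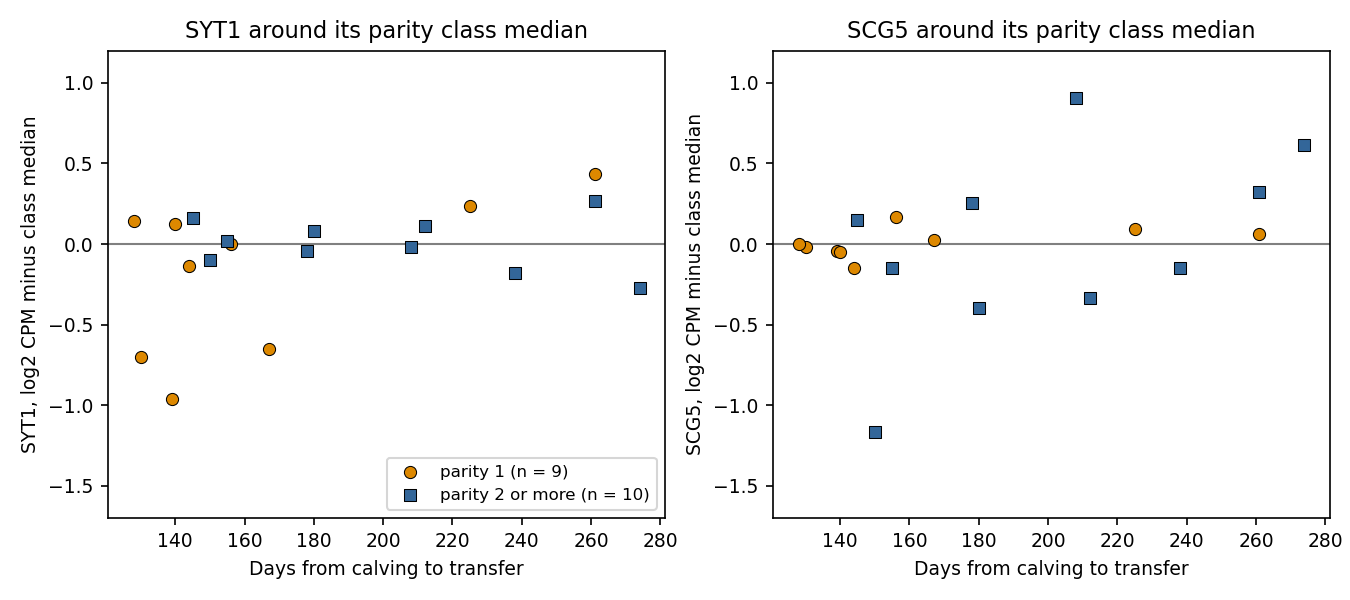
Log2 CPM of SYT1 (left) and SCG5 (right) minus the median of the cow's parity class (y axis) against days from calving to transfer (x axis) in the 19 libraries, 1 point per cow, circles for parity 1 and squares for parity 2 or more. The circles lie farther from 0 for SYT1 (mean distance 0.38 against 0.13) and the squares for SCG5 (0.07 against 0.44).

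Days from calving were not related to either gene at the precision of these cows. In the same fit, the log2 change per 30 days was 0.05 for SYT1 (standard error 0.16, -0.28 to 0.37, adjusted p = 0.999) and 0.04 for SCG5 (standard error 0.10, -0.17 to 0.25, adjusted p = 0.999, edgeR's quasi-likelihood test). Of all genes 0% passed, 793 had an unadjusted p under 0.05, and DESeq2's Wald test called 1 (0.00673%), again neither of these 2. Parity and days move together in part, with a median of 161.5 days in parity 1 and 187 days in parity 2 or more. Without the 4 libraries the change per 30 days was 0.06 for SYT1 (standard error 0.05) and 0.09 for SCG5 (standard error 0.06), and neither passed (adjusted p = 0.787 and 0.745). Across the 19 libraries, SYT1 and days had r = 0.350 (permutation p = 0.142, adjusted p = 0.446) and rho = 0.253 (permutation p = 0.295, adjusted p = 0.711). Without 2 cows far from the median in days, pregnant replicate 15 at 274 and non-pregnant replicate 14 at 261, r was 0.426 (permutation p = 0.0868). Pregnant replicate 7, also at 261 days, was as far as replicate 14 and stayed in. With replicate 7 alone left out, r was 0.242 (permutation p = 0.340). SCG5 and days had r = 0.257 (permutation p = 0.293, adjusted p = 0.513) and rho = 0.348 (permutation p = 0.143, adjusted p = 0.711), with r = 0.107 without pregnant replicate 15 and non-pregnant replicate 14.

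By pregnancy status, for which the genes were chosen, the means of both were slightly higher in pregnant cows and the ranges overlapped. SYT1 had a lowest value of 0.431 CPM, a median of 10.8 and a highest value of 15.4 CPM in 12 pregnant cows, and 0.345, 9.81 and 13.4 CPM in 11 non-pregnant cows. Its means were 9.83 ± 4.64 CPM (SD, n = 12) and 8.74 ± 3.99 CPM (SD, n = 11). SCG5 went from 5.01 CPM through a median of 23.6 to 37.2 CPM in pregnant cows, and from 6.48 CPM through 17.8 to 24.8 CPM in non-pregnant cows. Its means were 21.2 ± 9.57 CPM (SD, n = 12) and 18.8 ± 5.42 CPM (SD, n = 11). For each gene 9 of 12 pregnant cows lay above the median of the non-pregnant cows. Among the 19 libraries the counts were 5 of 10 for SYT1 and 7 of 10 for SCG5. The log2 fold change (pregnant against non-pregnant) was 0.17 for SYT1 with a standard error of 0.45, and 0.18 for SCG5 with a standard error of 0.27. Each of these differences is smaller than its standard error. Without the 4 libraries that stood apart they were 0.20 for SYT1 (standard error 0.15) and 0.24 for SCG5 (standard error 0.18), each larger than its standard error. Neither comparison with a standard error is a test, because the genes were chosen for this contrast on part of these cows. In those 19 libraries pregnant cows had a mean SYT1 of 11.7 ± 1.82 CPM (SD, n = 10) and non-pregnant cows one of 10.1 ± 2.75 CPM (SD, n = 9), while its medians were 11.2 and 11.3 CPM, in the other order. For SCG5 the means were 24.2 ± 7.20 CPM (SD, n = 10) and 20.4 ± 3.77 CPM (SD, n = 9), with medians of 24.1 and 22.7 CPM.

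Split by outcome and parity together, the low SYT1 values among the 19 libraries came from non-pregnant cows of parity 1. In those 4 cows SYT1 was at 5.80, 6.97, 7.23 and 12.4 CPM. It was at 9.81, 11.3, 11.7, 12.0 and 13.4 CPM in the 5 non-pregnant cows of parity 2 or more. In pregnant cows it was at 10.3, 11.4, 12.6, 13.5 and 15.4 CPM in parity 1 and at 9.18, 10.4, 10.8, 10.9 and 12.4 CPM in parity 2 or more. The groups overlapped through non-pregnant replicate 13, at 12.4 CPM. SCG5 was at 22.7, 22.7, 23.2 and 23.9 CPM in the non-pregnant cows of parity 1 and at 15.0, 15.7, 17.8, 17.8 and 24.8 CPM in those of parity 2 or more. In pregnant cows SCG5 was at 21.1, 23.4, 24.5, 25.0 and 26.3 CPM in parity 1 and at 8.78, 22.0, 23.7, 30.4 and 37.2 CPM in parity 2 or more. The widest range of SCG5 was thus in pregnant cows of parity 2 or more, with the lowest and the highest cow of the 19.

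Whether the difference by pregnancy status changed with parity was tested as an interaction. It uses the pregnancy status for which the genes were chosen, so it is not fully independent of that choice. It was -0.07 on the log2 scale for SYT1 (standard error 1.02, -2.18 to 2.04, adjusted p = 0.998) and 0.60 for SCG5 (standard error 0.57, -0.59 to 1.79, adjusted p = 0.992, edgeR's quasi-likelihood test). Here too 0% of 14852 genes passed, with 347 at an unadjusted p under 0.05 and 2 (0.0135%) called by DESeq2's Wald test, neither of them SYT1 or SCG5. The interval for SYT1 spans more than 4 log2 units, and the libraries with SYT1 under 1 CPM lie in 2 of the 4 groups. Without the 4 libraries that stood apart, the interaction was -0.71 for SYT1 (standard error 0.29, -1.33 to -0.10, adjusted p = 1.00 by edgeR) and 0.58 for SCG5 (standard error 0.35, -0.16 to 1.31, adjusted p = 1.00). Leaving out pregnant replicates 20 and 21 as well gave -0.76 for SYT1 (standard error 0.31) and 0.76 for SCG5 (standard error 0.23), with adjusted p of 0.999 for each by edgeR. None of these passed over all genes.

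**Figure D5:**
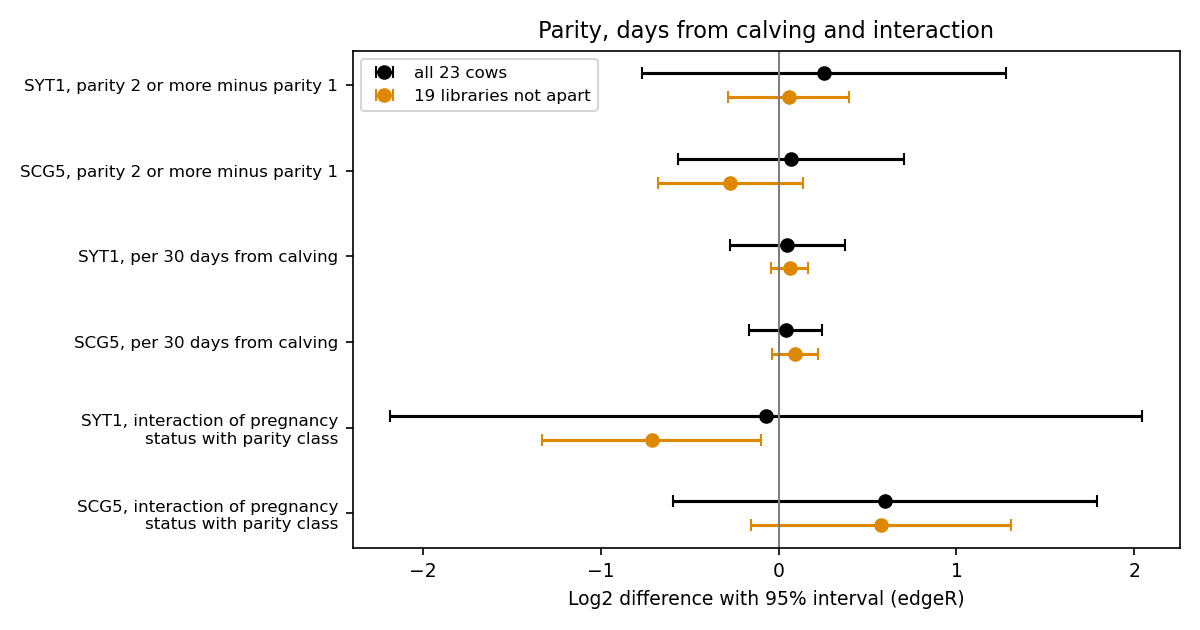
Log2 fold changes of SYT1 and SCG5 for parity, for 30 days from calving and for the interaction of pregnancy status with parity, with 95% intervals, from all 23 cows and without the 4 libraries that stood apart. Nearly every interval includes 0, and the exception is the SYT1 interaction without the 4 libraries (-1.33 to -0.10), which did not pass over all genes.

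The genes most like SYT1 and SCG5 across cows were not the same. Likeness is Spearman's rho of log2 CPM, given as a description, and its value over 23 cows includes the 4 libraries that stood apart. Of 14851 other genes, ENSBTAG00000038904 was most like SYT1 (rho = 0.840, n = 23) and ENSBTAG00000037813 most opposed (rho = -0.857). The second was also the most opposed over the 19 libraries (rho = -0.811, n = 19). Most like SCG5 was ENSBTAG00000006757 (rho = 0.856, n = 23), which ranked 4th over the 19 libraries (rho = 0.781), and most opposed was ENSBTAG00000016879 (rho = -0.840). In likeness to SYT1, SCG5 itself ranked 1475th over 23 cows and 5749th over the 19 libraries.

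Because these identifiers could not be paired with symbols, likeness was also ranked among the 49 other genes of the biomarker list, a step chosen after the data had been seen. CHAF1A, a subunit of a chromatin assembly factor, was most like SYT1 over 23 cows (rho = 0.646), and the tetraspanin TSPAN6 over the 19 libraries (rho = 0.533). The corepressor CTBP2 was most opposed to SYT1 over 23 cows (rho = -0.574), and NEIL2, a DNA glycosylase of base excision repair, over the 19 (rho = -0.670). For SCG5, the C-type lectin-like gene CLECL1 came first over 23 cows (rho = 0.744) and TMEM45A, which codes for a transmembrane protein, over the 19 (rho = 0.716), where CLECL1 was next (rho = 0.658). RNF19A, a ubiquitin ligase, was most opposed to SCG5 over 23 cows (rho = -0.619), and SLC35A3, a nucleotide sugar transporter of the Golgi, over the 19 (rho = -0.707). CLECL1 was near the top for SCG5 in both sets of libraries, and TSPAN6 was among the top 2 for SYT1 in both.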

How the data were processed

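The deposited values are read counts per Ensembl gene, which the authors made from TruSeq stranded total RNA libraries by alignment with STAR to UMD3.1 and counting with HTSeq, per the submitters' processing notes. The sources used here do not give tool versions, the annotation release or whether counting used the strand. In the RefSeq table for ARS-UCD2.0 each gene overlaps 1 long noncoding RNA gene and has several transcripts (9 for SYT1 and 6 for SCG5). Reads of overlapping genes cannot be told apart without the strand, and gene counts do not separate transcripts. The counts carry no normalization, and depth was 6920879 to 27357249 counts in genes. Within groups, no 2 libraries were alike within sampling noise (over 121 pairs, chi-square divided by its degrees of freedom was 30.5 or more). Each label names a single cow, so replicates are cows.

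Genes were kept by edgeR's default filter (14852 of 24616). CPM were scaled by TMM, and log2 CPM used a prior count of 2. SYT1 and SCG5 were tested for parity class and days from calving, with pregnancy status in the fit, and for the interaction in a second fit, by the quasi-likelihood test of edgeR 4.0.16 in R 4.3.3 over all genes, at a Benjamini-Hochberg adjusted p of 0.05. DESeq2 1.42.0 gave the vst used for the principal components and a second test. Correlations used 1e+05 permutations, two-sided, and were computed over the 19 libraries in place of the 23 planned, because the libraries fall into clusters. The edgeR fit for parity was tried on simulated counts, and the other tests were not.

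The genes, the lists and the tests were chosen with earlier results of these data known. The plan was to name SYT1, SCG5, members of lists of synaptotagmins, granins and the exocytosis machinery, and the genes most and least like either gene. Those lists and the cell type markers were not analysed here, since 0 of 37063 rows of the RefSeq table carry an Ensembl identifier. The symbols of the 50 biomarker genes come from the study's list. Alternatives were leaving out each cow, leaving out the libraries that stood apart, scaling by DESeq2 size factors, the Wald test of DESeq2, and 2 other filters (none, or 11 libraries with a CPM of 1 or more).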

Additional observations from a re-analysis of the deposited data

Results flagged for a closer look

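Dixon's test for a single far value, at its 95% limit, was run on both ends of 12 sets of values (6 groups of 5 to 7 cows for each gene, by parity number or by outcome and parity class) and marked 5 of 24 ends. Chance marks about 1 in 20 groups, and the groups share cows. Non-pregnant replicate 6 was far below the rest for SYT1, at 0.345 CPM, both among the 5 cows of parity 2 and among the 6 non-pregnant cows of parity 2 or more. In the same 6 cows, non-pregnant replicate 14 was far above the rest for SCG5, at 24.8 CPM. Among the 5 non-pregnant cows of parity 1, replicate 13 was above the rest for SYT1, at 12.4 CPM, and replicate 4 far below for SCG5, at 6.48 CPM. The mark on replicate 13 was narrow, with a gap of 0.716 of the range against a limit of 0.710. Its value was high for that group only, within the 5.80 to 15.4 CPM of the 19 libraries. Replicates 4 and 6 are 2 of the 4 libraries that stood apart on the first principal component.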

How the results depend on the processing

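No test of SYT1 or SCG5 for parity, days or the interaction crossed its threshold under any alternative. Of 131 alternatives 118 kept the direction and the side of the threshold, or the value, and of 348 fits without 1 cow 326 did. The difference by pregnancy status has no test and counted as kept if it moved by less than the SD between cows. That SD is larger than the difference itself, so these entries say little about stability. Leaving out 1 cow moved this difference between 0.016 and 0.29 for SYT1 and between 0.070 and 0.26 for SCG5. The parity change of SCG5 was -0.27 without the 4 libraries that stood apart and -0.11 without those and pregnant replicates 20 and 21. Without replicates 20 and 21 alone, the change of SCG5 per 30 days was -0.0015 and the interaction of SYT1 was 0.016. DESeq2's Wald test called 1 gene for parity, 1 for days and 2 for the interaction, against 0 by edgeR. The correlation of SYT1 with SCG5 was 0.606 (permutation p = 0.0046, adjusted p = 0.0322, n = 23) with all cows, 0.662 with the 4 libraries but without replicates 20 and 21, and 0.0462 without the 2 cows farthest in SYT1. With all 23 cows the spread of SCG5 in parity 2 or more minus that in parity 1 was -0.10 and that of SYT1 was -0.52. The difference of the 4 libraries for SYT1 was -1.57 on the vst scale, which compresses low counts.

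Without 1 cow at a time, the parity change ranged from 0.15 to 0.42 for SYT1 and from -0.070 to 0.21 for SCG5, which was below 0 without non-pregnant replicate 4 or pregnant replicates 11, 22 or 23. The change per 30 days ranged from -0.028 (without pregnant replicate 7) to 0.072 for SYT1 and from -0.0030 (without pregnant replicate 21) to 0.082 for SCG5. The interaction ranged from -0.38 to 0.14 for SYT1 and from 0.39 to 0.93 for SCG5. That of SYT1 was above 0 without non-pregnant replicates 4, 12 or 19 or pregnant replicates 15 or 17. The correlation of SYT1 with SCG5 ranged from -0.0636 to 0.0197, and the spread difference from -0.30 to -0.18 for SYT1 and from 0.28 to 0.39 for SCG5. The cause of these shifts was not tested.

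No paired analysis was possible because the replicate numbers run through both groups and none is shared. The counts of 7 and 8 limit how closely the lowest SYT1 levels can be given, and with 11 or 12 cows a side the intervals for parity reach beyond 1 log2 unit for SYT1.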
